A study of Mus musculus with 4 samples.

Results

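Plasma cells and the B cells they arise from are held apart by opposing transcription factors, and 10 genes of this circuit were followed here in the J558 plasmacytoma: Prdm1, Irf4, Xbp1, Pou2af1 and Ell2 on the plasma cell side, and Pax5, Bach2, Bcl6, Spib and Ebf1 on the B cell side. The members were taken as every probe set that the platform annotation assigned to one of these symbols, which gave 23 probe sets for 10 of the 18193 genes with a single symbol on the array. J558 is a plasmacytoma line from a BALB/c (H-2Ld) mouse, grown in culture. All 4 samples were separate clones selected with G418 after transfection with a neomycin resistance vector. In 2 of them, called silenced here, an AID-targeting sequence in the pSilencer 1.0 vector was carried along, and in the other 2, the controls, the same vector was empty. AID, activation-induced cytidine deaminase, deaminates cytosines in immunoglobulin genes of B cells, the step from which hypermutation and class switching proceed. By their labels the clones form pair 1 and pair 2, with 1 control and 1 silenced clone in each. One Affymetrix mouse expression array was run per clone, so that n is 2 per group and each value stands for a single clone. Differences between clones and differences between RNA preparations or arrays cannot be told apart, and the p-values below measure the spread between these 4 samples.

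In the textbook view, Pax5 and Ebf1 set and hold B cell identity, Bcl6 and Bach2 keep an activated B cell from becoming a plasma cell, and Spib is an Ets factor of B cells that works with Irf4 and its relatives. High Irf4 and the repressor encoded by Prdm1, Blimp-1, switch that program off, and Blimp-1 represses Pax5, Bcl6 and Spib among others. Xbp1, whose mRNA is spliced by the endoplasmic reticulum kinase Ire1 (encoded by Ern1), expands the secretory machinery, Pou2af1 (OCA-B) is the coactivator that docks on the octamer-binding factors at immunoglobulin promoters, and Ell2 is an elongation factor that favours the secreted form of the immunoglobulin heavy chain mRNA. Splicing of Xbp1 was not measured here. In the assembly used for names, Prdm1 lies on chromosome 10, Irf4 and Ell2 on chromosome 13, Xbp1 and Ebf1 on chromosome 11, Pou2af1 on chromosome 9, Pax5 and Bach2 on chromosome 4, Bcl6 on chromosome 16 and Spib on chromosome 7.

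Irf4, Xbp1, Pou2af1 and Ell2 are shown by the 250 bases upstream of their annotated starts. With the deposited scaling these were the 4 members whose signals were higher in both clones of pair 2 at every tested probe set. After quantile normalisation, 3 of the 9 tested probe sets of plasma cell factors had both clones of pair 2 above pair 1. The sequences are from RefSeq (GRCm38.p6), are written 5′ to 3′ on the strand of the gene, and carry in capitals the letters that matched one of 7 motifs. All 4 genes lie on the plus strand, at chr13:30748983-30749232 for Irf4, chr11:5520391-5520640 for Xbp1, chr9:51213440-51213689 for Pou2af1 and chr13:75707234-75707483 for Ell2.
Irf4: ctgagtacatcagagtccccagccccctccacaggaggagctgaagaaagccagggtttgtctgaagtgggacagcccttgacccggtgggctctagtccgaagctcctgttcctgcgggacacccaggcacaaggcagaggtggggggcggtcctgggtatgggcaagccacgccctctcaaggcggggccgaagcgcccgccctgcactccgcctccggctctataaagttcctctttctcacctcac
Xbp1: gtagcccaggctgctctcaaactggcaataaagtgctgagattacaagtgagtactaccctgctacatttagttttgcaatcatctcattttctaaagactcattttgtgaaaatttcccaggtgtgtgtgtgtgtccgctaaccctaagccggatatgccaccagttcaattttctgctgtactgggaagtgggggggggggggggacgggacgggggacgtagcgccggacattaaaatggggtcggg
Pou2af1: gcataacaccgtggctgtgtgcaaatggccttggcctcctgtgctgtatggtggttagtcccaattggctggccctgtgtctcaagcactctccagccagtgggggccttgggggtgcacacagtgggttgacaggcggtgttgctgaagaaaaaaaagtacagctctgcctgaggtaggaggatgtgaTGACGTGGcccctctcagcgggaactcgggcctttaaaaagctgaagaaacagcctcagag
Ell2: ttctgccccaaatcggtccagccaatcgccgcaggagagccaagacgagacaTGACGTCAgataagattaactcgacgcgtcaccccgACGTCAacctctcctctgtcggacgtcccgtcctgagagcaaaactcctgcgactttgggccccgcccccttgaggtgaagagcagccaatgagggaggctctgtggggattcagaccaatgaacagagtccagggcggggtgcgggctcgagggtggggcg

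The motifs were searched on both strands, in windows of these 250 bases and the 50 bases past the start, which are not shown. The unfolded protein response element, TGACGTGG, a sequence bound by Xbp1, was matched in the Pou2af1 window. Its first base lay at position −61 from the start, and 0.563% of all 32851 such windows held the element. The shorter sequence TGACGT, the core of the cyclic AMP response element, which lies within that element, was matched in the Ell2 window at positions −198, −196 and −162, the first pair overlapping on opposite strands, and 6.47% of all windows held it. The other motifs were the interferon-stimulated element GAAA, any 2 bases, GAAA (2.98% of windows), the Ets-Irf composite element GGAA, any 2 bases, GAAA (2.3%), the octamer ATGCAAAT (1.6%), the endoplasmic reticulum stress element CCAAT, any 9 bases, CCACG (0.113%) and the AP-1 motif TGANTCA (6.75%). None of the 5 was matched in these 4 windows, and the Irf4 and Xbp1 windows held no match to any of the 7. A match is a description of letters and does not show a bound site.

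The deposited MAS5 signals are linear array intensities, with medians between 52.7 and 54.9 on the 4 arrays and highest signals between 40604 and 53070. As a guide to the level without signal, the highest of 27 bacterial control probe sets (Dap, Lys, Phe, Thr and Trpn) was taken on each array. This level was 41.9 and 38.8 in the pair 1 and pair 2 controls and 27.3 and 39.9 in the silenced clones, and 47.1% of all probe sets exceeded it on all 4 arrays. The labelled cell type was checked against marker lists. All 9 plasma cell markers analysed, among them Sdc1, Jchain and Igha, exceeded the control level on every array, with summed signals of 106034 and 133719 in the controls and 117156 and 137263 in the silenced clones. Of 9 mature B cell markers Ms4a1, Cd79b and Cd74 did so and Cd79a and Cr2 were at or below it on every array (summed signals 8545 and 3997 in the controls, 5034 and 5163 in the silenced clones). Of 8 T and NK cell markers Cd8a and Cd28 exceeded the control level on every array and Cd3d, Cd4 and Cd5 on none. Their summed signals were 992 and 1012 in the controls and 1997 and 564 in the silenced clones, of which Cd28, also a Pax5-repressed gene, made up between 410 and 1902. Of 10 myeloid markers Csf1r and Mpo exceeded it on every array and Itgam, Cd14, S100a8 and S100a9 on none, with sums of 484 and 1113 in the controls and 663 and 816 in the silenced clones. Of 10 stromal and epithelial markers Col1a2, Pecam1 and Epcam exceeded it on every array and Dcn and Pdgfrb on none, with sums of 3046 and 1774 in the controls and 4746 and 3207 in the silenced clones. Most of these sums was Epcam, an epithelial adhesion molecule, with 2327 and 1035 in the controls and 4012 and 2475 in the silenced clones, which lay above both controls at a difference of 1.01 ± 0.42 log2 units (SE, n = 2 per group, limma adjusted p = 0.9996). The part of these other markers in the results below was not tested.

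The plasma cell factors were bright in every clone. At 9 of their 10 probe sets all 4 signals exceeded the control level, and over those 9 the signals ran from 465 to 38926. Xbp1 had signals of 27279 and 38028 in the pair 1 and pair 2 controls and 33142 and 38926 in the silenced clones at its brightest probe set. These lie close to the top of the arrays' range, where a difference can be compressed. Pou2af1 had 24137 and 27821 in the controls and 23347 and 27604 in the silenced clones, so that both groups covered the same range.

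Irf4 gave 10557 and 14859 in the controls and 12414 and 14979 in the silenced clones at its brighter probe set. Ell2 had 3415 and 5252 in the controls and 4119 and 7481 in the silenced clones at its brighter probe set, with the highest value in the silenced clone of pair 2. Its other probe set stayed at or below the control level on all arrays, between 2.6 and 23.8. Prdm1, measured by a single probe set, had 1435 and 2131 in the controls and 2760 and 2240 in the silenced clones. The control clone of pair 1 stood lowest for Prdm1, Irf4, Xbp1 and Ell2 at their brightest probe sets.

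**Figure D1:**
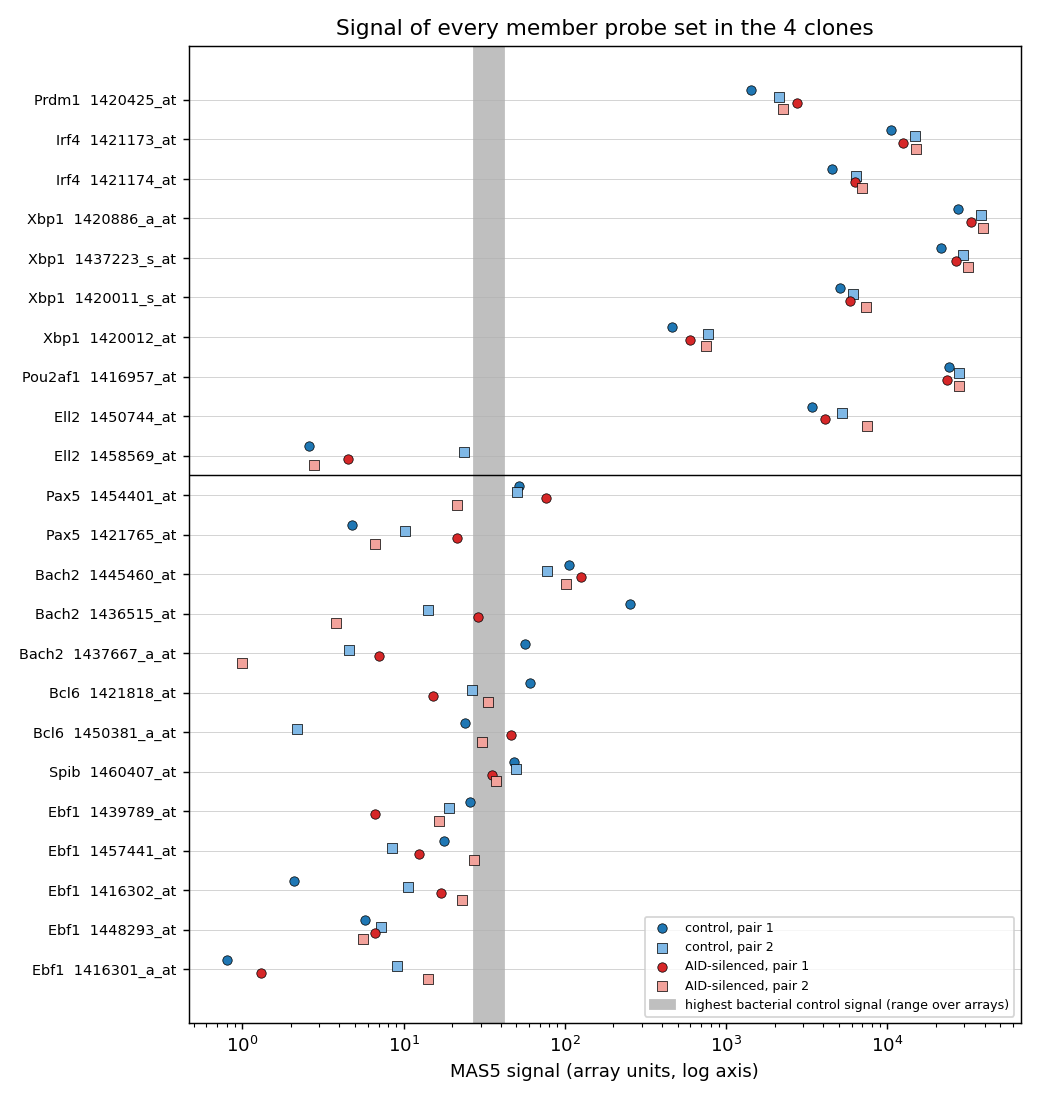
MAS5 signal (log axis) of all 23 member probe sets in the 4 clones, with plasma cell factors above the line and B cell factors below it. The grey band is the range over the arrays of the highest bacterial control signal. The 9 tested probe sets of the plasma cell factors lie between 465 and 38926, and of the 13 probe sets of B cell factors 1 lies above the control level on all 4 arrays.

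The B cell factors were near or below the control level. Of their 13 probe sets, 6 were at or below it on all 4 arrays, 6 exceeded it on some arrays and 1, a probe set for Bach2, on all. By array, 6 of the 13 exceeded it in the control clone of pair 1, 3 in that of pair 2, 5 in the silenced clone of pair 1 and 1 in that of pair 2. The control level was lowest in the silenced clone of pair 1, at 27.3 against 38.8 to 41.9 on the other arrays. The share of all probe sets above it on each single array is not given here, so the counts by array do not compare the clones.

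All 5 probe sets for Ebf1, the pioneer factor of the B lineage, lay between 0.8 and 27.5 and never above the control level of their array. Pax5 had 4.8 and 10.2 in the controls and 21.3 and 6.7 in the silenced clones at its dimmer probe set. At the other it had 52.3 and 50.7 against 76.2 and 21.5, above the control level in all clones but the AID-silenced one of pair 2.

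Spib had 48.2 and 49.5 in the controls and 35.5 and 37.2 in the silenced clones. It too was above the control level in all but the silenced clone of pair 2. Its 35.5 in the silenced clone of pair 1 counted as above only because the control level of that array was lower. Bcl6, the germinal centre repressor, had 61.2 and 26.7 against 15.3 and 33.6 at one probe set and 24.1 and 2.2 against 46.4 and 30.5 at the other. Its 2 probe sets put different clones highest, and each exceeded the control level in 1 clone. Ebf1 was thus at or below the control level in every clone and each Bcl6 probe set in 3 of 4, whereas Spib and the brighter Pax5 probe set exceeded it in 3 clones. None of these probe sets passed the filter for testing, and no fold change is given for them.

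Bach2 had the highest signal of any B cell factor, in 1 clone. At one of its 3 probe sets the control clone of pair 1 had a signal of 255, against 14.1 in the control clone of pair 2 and 28.9 and 3.8 in the silenced clones of pairs 1 and 2. Taking for each of the other arrays the higher of its own signal and its control level, the signal in that clone was at least 6.38-fold higher than in any other. Another probe set had the same order, with 56.8 in that clone and 4.6, 7 and 1 in the others, and the corresponding bound was 1.42-fold. The brightest probe set by mean signal did not share this pattern, with 106 and 77.8 in the controls and 127 and 102 in the silenced clones, and the probe sets of Bach2 therefore disagree. From RNA of a whole culture, fewer cells that express a gene and less of its RNA per cell cannot be told apart.

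Other genes highest in the same clone were found by a search for a like pattern. By the distance of centred log2 values over the 4 arrays, searched among 10474 tested genes, the pattern of the Bach2 probe set with the signal of 255 was most like that of Cd69, an activation antigen of lymphocytes (distance 0.50), H2-Ab1, the beta chain of an MHC class II molecule (0.55), and Jdp2, a basic leucine zipper factor (0.68). This probe set was chosen for the search after its values were seen. Cd69 had signals of 824 and 49.2 in the controls and 84.2 and 22.6 in the silenced clones. H2-Ab1 had 452 and 29 against 45.7 and 4.3, and Jdp2 had 421 and 22.8 against 76.9 and 31.4.

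Klf2, a factor of resting lymphocytes, had 396 and 50.6 in the controls and 44.1 and 48.6 in the silenced clones. Irf8, an Irf4 relative of B and myeloid cells named after its values were seen, had 142 and 21 against 18.9 and 13. In all of these the control clone of pair 1 was highest, so the difference within pair 1 was that of a single clone. Cd69, H2-Ab1 and Jdp2 were picked for this pattern and Irf8 with its values seen, so their agreement is no independent result. Klf2 differed between the groups by −1.41 ± 0.81 log2 units (SE, n = 2 per group, limma adjusted p = 0.9996). Leaving out the control of pair 2 gave a difference of −2.73 (limma adjusted p = 0.0373), a fit in which the control arm is the 1 clone already seen to be highest and is assumed to vary like the silenced clones, and leaving out that of pair 1 gave −0.10. For the 3 members with the largest range among tested genes the same search gave Shcbp1, Pcbp3 and Dbr1 for Ell2 (distances 0.099 to 0.11), Fancc, Prss12 and Unc119 for Prdm1 (0.069 to 0.089) and Ccm2, Fbxw7 and Fem1a for the brightest Bach2 probe set (0.033 to 0.046). Of these, Pcbp3 (signals of 32.4 to 83) and Prss12 (39.5 to 84.9) were dim, and both were below the control level in the control of pair 1. With 4 arrays such matches are a description and carry no test.

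**Figure D2:**
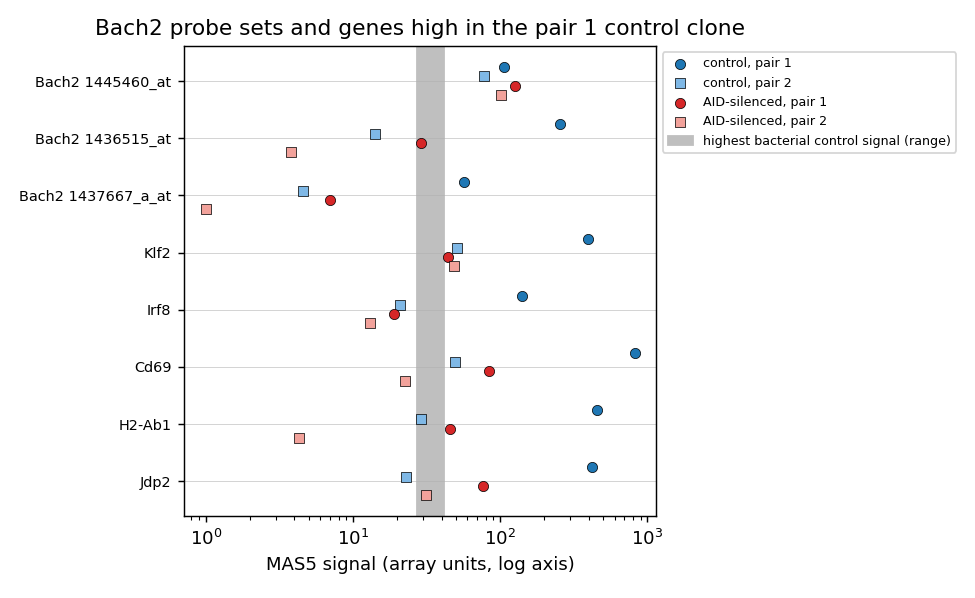
MAS5 signal (log axis) in the 4 clones for the 3 Bach2 probe sets, for Klf2 and Irf8 and for the 3 genes most like the Bach2 probe set with the highest single signal. Apart from the brightest Bach2 probe set by mean, each row has the control clone of pair 1 highest, for example Bach2 at 255, Klf2 at 396 and Cd69 at 824. The 3 like genes were picked for this pattern, and Irf8 was named with its values seen. The grey band is the control level.

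The comparison of AID-silenced with control clones asked whether silencing went with a shift of this circuit. None of the 10 member probe sets bright enough to be tested, 9 for plasma cell factors and 1 for Bach2, passed the limma threshold of an adjusted p of 0.05, and none had an unadjusted p under 0.05. Over all 22519 tested probe sets 0.00888% passed the adjusted threshold and 3.49% the unadjusted one. Prdm1 had the largest of the 10 differences, 0.50 ± 0.27 on the log2(signal + 16) scale (SE, n = 2 per group, limma adjusted p = 0.9996), made up of 0.94 in pair 1 and 0.07 in pair 2. It was the 1 plasma cell probe set whose silenced clones both lay above both controls, against 15.5% of all tested probe sets.

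Ell2 differed by 0.39 ± 0.35 (SE, n = 2 per group), with 0.27 in pair 1 and 0.51 in pair 2. Irf4 differed by 0.12 ± 0.23 at the brighter and 0.29 ± 0.24 at the dimmer probe set, and both probe sets had a larger value in pair 1 (0.23 and 0.47) than in pair 2 (0.01 and 0.11). The 4 Xbp1 probe sets differed by between 0.15 and 0.24, with values of 0.28 in pair 1 and 0.03 in pair 2 at the brightest. Pou2af1 differed by −0.03 ± 0.18, with −0.05 and −0.01 in the pairs. Bach2 at its tested probe set differed by 0.28 ± 0.35, with 0.22 and 0.33.

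Of the 9 plasma cell probe sets 7 were higher in the silenced clone of both pairs, 1 was lower and 1 opposite, where 27.8% of all tested probe sets were higher in both, 26.0% lower in both and 46.2% opposite. These probe sets stand for 5 genes, and those of a gene share its transcript. Their median difference was 0.28 in pair 1 and 0.07 in pair 2, against 0.006 for the mean of the pairs over all tested probe sets. Leaving out the control of pair 1 gave −0.12 and 0.041 at the brighter and dimmer Irf4 probe sets, −0.082, −0.027 and −0.21 at 3 of the 4 Xbp1 probe sets and 0.22 at Prdm1. Leaving out the silenced clone of pair 2 gave −0.040 at Ell2, −0.013 at the brighter Irf4 probe set and −0.014 at the dimmest Xbp1 probe set, and Pou2af1 gave 0.073 when the control of pair 2, and 0.091 when the silenced clone of pair 1, was left out. Bach2 gave 0.084 when the control of pair 2 was left out.

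**Figure D3:**
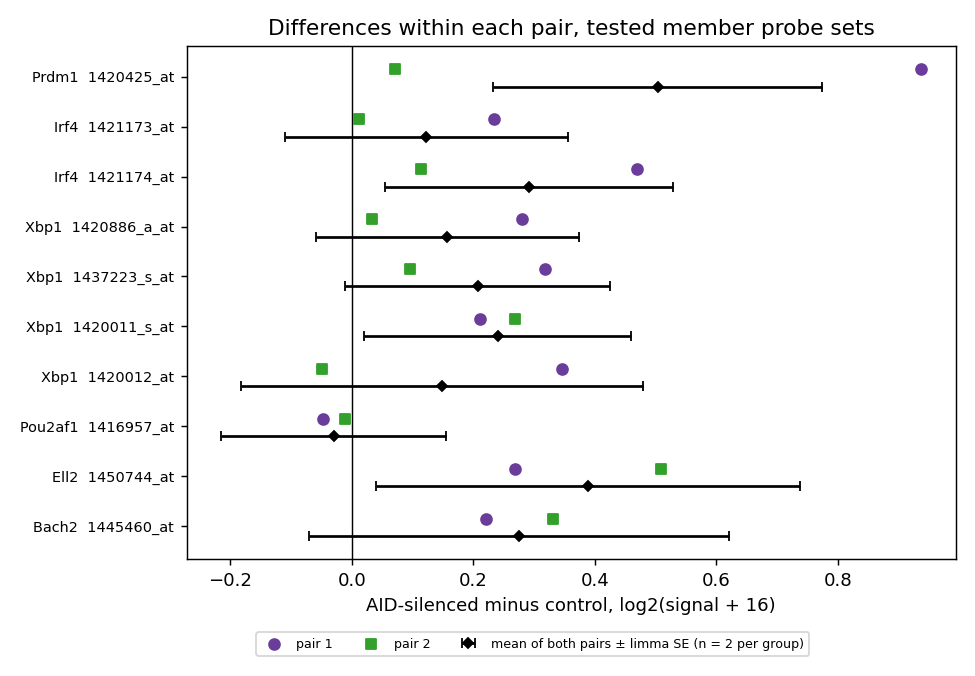
Difference of AID-silenced minus control in log2(signal + 16) for the 10 tested member probe sets. Circles are pair 1, squares pair 2, and diamonds the mean of both with the limma standard error (n = 2 per group). Prdm1 lies at 0.94 in pair 1 and 0.07 in pair 2 and Ell2 at 0.27 and 0.51.

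The clones of pair 2 were then compared with those of pair 1. Of the 9 plasma cell probe sets 8 had both clones of pair 2 above both of pair 1 and none the reverse, against 20.7% of all tested probe sets, and Prdm1 was the exception. None of the 10 member probe sets passed limma at an adjusted p of 0.05, nor did any of the 22519 tested (0.0%). At an unadjusted p under 0.05 there were 4 of the 9, against 13.5% of all tested probe sets and 5.3% in this direction. Ell2 was higher in pair 2 by 0.74 ± 0.22 (SE, n = 2 per pair, limma adjusted p = 0.278), by 0.62 between the control clones and 0.86 between the silenced clones. Irf4 differed by 0.38 ± 0.13 (limma adjusted p = 0.320) at the brighter and 0.33 ± 0.19 at the dimmer probe set. The Xbp1 probe sets differed by between 0.29 and 0.52, with 0.36 ± 0.12 at the brightest (limma adjusted p = 0.316), and Pou2af1 by 0.22 ± 0.10. Leaving out the silenced clone of pair 2 gave 0.48 at Ell2, and leaving out the control of pair 1 gave 0.091 at the dimmer Irf4 probe set and 0.22 at the brightest Xbp1 probe set. Prdm1 gave 0.57 between the controls and −0.30 between the silenced clones, and the tested Bach2 probe set gave −0.38 and −0.27.

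Bright probe sets as a class were higher in pair 2. Among the 1% brightest tested probe sets, 226 with mean signals of at least 21075, 79.6% had both clones of pair 2 above both of pair 1, with a median difference of 0.20. Of the members, Pou2af1 and the 2 brightest Xbp1 probe sets belonged to that class. The brighter Irf4 probe set was in the next class, from the 1% to the 5% brightest, with 49.6% and a median of 0.18, and Ell2 in the class from 5% to 10%, with 34.8% and 0.10. After quantile normalisation, which removes such a shift, the median of the brightest class was −0.002, 3 of the 9 plasma cell probe sets had both clones of pair 2 above pair 1 and their median difference was 0.19 instead of 0.36. Gene by gene, quantile normalisation gave a pair difference of 0.67 at Ell2, 0.20 and 0.22 at the brighter and dimmer Irf4 probe sets, 0.17 at the brightest Xbp1 probe set and 0.16 at the second, and 0.018 at Pou2af1. With the deposited scaling the value at Pou2af1 was 0.22, so little of it was left. The brighter Irf4 probe set had 0.38 and the 2 brightest Xbp1 probe sets 0.36 each, over 1.5 times the values after quantile normalisation.

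**Figure D4:**
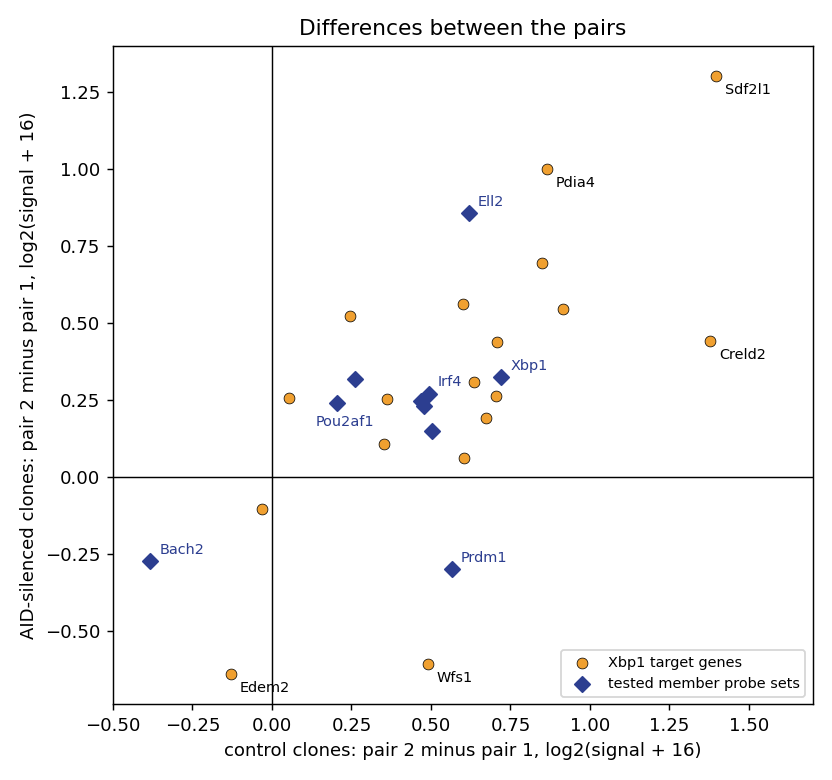
Difference of pair 2 minus pair 1 in log2(signal + 16) between the control clones (horizontal) and between the silenced clones (vertical), for the 10 tested member probe sets (diamonds) and the 19 tested Xbp1 target genes (circles). Points above and to the right of 0 are higher in pair 2 in both, such as Ell2 at 0.62 and 0.86 and Sdf2l1 at 1.40 and 1.30, while Prdm1 lies at 0.57 and −0.30.

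The genes that work with the members, or are known to be regulated by them, gave no calls. Of 142 such genes outside the 10 members, 108 were tested, and 0 passed limma at an adjusted p of 0.05 between groups or between pairs, with 5 and 26 at an unadjusted p under 0.05, against 3.89% and 15.5% of all 10475 tested genes, of which 0.0191% passed the adjusted threshold between groups and 0.0% between pairs. Between the groups 30 were higher and 21 lower in both silenced clones and 57 opposite, against 26.7%, 27.5% and 45.8% of all tested genes.

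Targets of Xbp1, the chaperones and translocation genes of the endoplasmic reticulum, had no common direction between the groups. Of 19 tested, 6 were higher in both silenced clones, 2 lower and 11 opposite, against 26.7%, 27.5% and 45.8% of all tested genes. Their medians were 0.17 in pair 1 and −0.09 in pair 2. Dnajb11, an Hsp40 cochaperone of the endoplasmic reticulum, had 4994 and 5187 in the controls and 6547 and 7829 in the silenced clones, a difference of 0.49 ± 0.20 (SE, n = 2 per group, limma adjusted p = 0.9996). Hspa13 at 0.45 and Edem1, which helps extract misfolded glycoproteins for degradation, at 0.26 likewise had both silenced clones above the controls, and Hspa13 gave 0.27 when the control of pair 1 was left out.

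Between the pairs the same genes were mostly higher in pair 2. Of the 19, 14 had both clones of pair 2 above both of pair 1 and 1 below, against 19.5% and 29.3% of all tested genes, with a median difference of 0.43 against −0.07. Sdf2l1, a component of a chaperone complex, had 2870 and 3479 in pair 1 (control and silenced clone) and 7581 and 8610 in pair 2, a difference of 1.35 ± 0.17 (SE, n = 2 per pair, limma adjusted p = 0.200). Pdia4, a disulfide isomerase, had 4834 and 5033 in pair 1 and 8815 and 10082 in pair 2 (limma adjusted p = 0.242). Most of the 19 were bright, with 2 in the 1% brightest class, 6 from 1% to 5%, 6 from 5% to 10% and 4 from 10% to 25%. In these classes 79.6%, 49.6%, 34.8% and 25.2% of probe sets had both clones of pair 2 above pair 1. After quantile normalisation 13 of the 19 Xbp1 targets had both clones of pair 2 above pair 1, with a median of 0.29.

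Ern1, which encodes the kinase that splices Xbp1 mRNA, went the other way, with 5491 and 5929 in pair 1 and 1629 and 2721 in pair 2. Its difference was −1.43 ± 0.26 (SE, n = 2 per pair, limma adjusted p = 0.245). Sel1l, the adaptor of the Hrd1 ubiquitin ligase in degradation from the endoplasmic reticulum, differed by −0.45 ± 0.16 in the same direction. Of 8 genes listed for the activation of Xbp1, 1 was above and 2 below in both clones of pair 2, shares near the 19.5% and 29.3% of all tested genes.

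Of 14 Pax5-activated genes analysed, 5 were bright enough to be tested. Of these, 2 were higher in both silenced clones, 2 lower and 1 opposite, against 26.7%, 27.5% and 45.8% of all tested genes. The 2 lower ones were Id3 at −0.27 and Siglecg at −0.10. Vpreb3, a chaperone of the pre-B cell receptor, had 158 and 175 in the controls and 596 and 385 in the silenced clones, a difference of 1.44 ± 0.33 (SE, n = 2 per group, limma adjusted p = 0.9996). Ikzf3 (Aiolos) differed by 0.69 ± 0.55, and gave −0.0072 when the silenced clone of pair 1 was left out. Blnk, the adaptor of B cell receptor signalling, was among the bright ones, with 5324 and 5834 in pair 1 and 11125 and 9554 in pair 2. Of the 6 tested Pax5-repressed genes 4 were higher in both silenced clones and none lower, against 26.7% and 27.5% of all tested genes. Among the 4 were Cd47 at 1.19 ± 0.24 (limma adjusted p = 0.784) and Notch1, a receptor of lineage choice, at 0.60 ± 0.29.

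Among partners of the plasma cell factors, Pou2f2 (Oct-2), which recruits Pou2af1 to the octamer, had 1029 and 527 in the controls and 588 and 392 in the silenced clones, so the groups overlapped. Eaf2, which binds Ell family proteins, had 3990 and 7010 in the controls and 7271 and 10957 in the silenced clones, with a difference of 0.75 ± 0.33 (SE, n = 2 per group, limma adjusted p = 0.9996). Leaving out the control of pair 1 gave 0.35 for Eaf2, and leaving out that of pair 2 gave 1.16. With Eaf2 among them, 13 subunits and regulators of the elongation complex were tested. In both silenced clones 3 were higher and 3 lower, and 7 were opposite, against 26.7%, 27.5% and 45.8% of all tested genes. Hexim1, an inhibitor of the kinase of that complex, differed between the pairs by 0.60 ± 0.28. It differed by 0.23 or 0.97 when the silenced clone or the control of pair 1 was left out. Of the 9 genes of polyadenylation and splicing linked to Ell2, 5 had both clones of pair 2 above pair 1 and none below. Over all tested genes the shares were 19.5% and 29.3%. Cstf3 differed by 0.63 ± 0.18 and Hnrnph1 by 0.57 ± 0.15. Hnrnpf and Hnrnph1 were in the class from the 1% to the 5% brightest, where 49.6% of probe sets had pair 2 above. Cstf3 was in the class from 25% to 50%, with 17.2%. The part of brightness in the count of 5 was not tested.

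Among partners of the B cell factors, Mafk, a small Maf protein that pairs with Bach2, had 532 and 871 in the controls and 432 and 364 in the silenced clones. Hmox1, the heme oxygenase gene that Bach factors repress, had 1167 and 1073 against 736 and 759, a difference of −0.57 ± 0.23 (SE, n = 2 per group, limma adjusted p = 0.9996). Of the Bcl6 corepressor genes 7 were tested, 2 lower in both silenced clones and 5 opposite, against 27.5% and 45.8% of all tested genes. Mta3 differed between the pairs by −0.90 ± 0.23. The listed cofactors of Ebf1 included Foxo1, lower in pair 2 by −0.75 ± 0.22, and Tcf4, an E protein, at 0.63 ± 0.20, each with its pairs apart and neither called.

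Zbtb20, a factor of plasma cell survival, had 1410 and 759 in the controls and 3133 and 2161 in the silenced clones, a difference of 1.32 ± 0.35 (SE, n = 2 per group, limma adjusted p = 0.9996). It gave 0.88 when the control of pair 2 was left out. Zbtb20 was among 15 tested factors of the wider B lineage list. Of these, 8 were higher in both silenced clones, 3 lower and 4 opposite, against 26.7%, 27.5% and 45.8% of all tested genes. Between the pairs 6 of these 15 had both clones of pair 2 below pair 1 and 1 above, against 29.3% and 19.5% of all tested genes. Ikzf3 was one of the 6, with 261 and 512 in pair 1 and 130 and 184 in pair 2, a difference of −1.16 ± 0.38 (limma adjusted p = 0.303), and gave −0.69 when the silenced clone of pair 1 was left out.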

How the data were processed

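The deposited values are array intensities, 1 per probe set, on a linear scale, computed by MAS5 according to the submitters' processing notes, whose settings are not given in the sources used here. The 2% trimmed mean of each array was 500.0, so the arrays were not scaled again. RNA (6 µg per array) was labelled as biotinylated cRNA, per the labels' protocols. The log2 differences are on the log2(signal + 16) scale, computed from the deposited values, and understate those of dim genes. The fold bounds given for Bach2 are ratios of signals without that offset.

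Of 45101 probe sets, 64 control probe sets were left out and the 22519 in the upper 0.5 by mean log2 value (a mean signal of 49.4) were tested with limma 3.58.1 in R 4.3.3 (lmFit, eBayes with trend and robust prior, statmod 1.5.0), without a block, with Benjamini-Hochberg adjustment over all of them. Of the members, 10 of 23 probe sets passed the filter. The limma fit was also tested on simulated data, in which the noise was independent between arrays and no difference between the pairs was planted. For each gene the brightest of its single-symbol probe sets was used. Symbols were checked against a RefSeq table of GRCm38.p6.

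The members and lists were chosen with earlier results of these data known. Of each list the genes eligible for naming were up to 4 with the largest group difference among those alike in sign in both pairs and up to 2 with the largest pair difference. The search for like patterns was restricted to tested members after the data were seen. The classes of brightness were also chosen then, and Irf8, Cd69 and Jdp2 were named with their values already seen. Mitf, picked likewise and not tested, had 138 and 4.8 in the controls and 29.7 and 81.4 in the silenced clones. The pairing comes from the labels. Across tested probe sets the differences of pair 2 from pair 1 in control and AID-silenced clones correlated (r = 0.306, rho = 0.336, over 22519 probe sets, which are not independent replicates). The level of the silenced gene is not reported here. Figures were drawn with matplotlib 3.10.9.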

Additional observations from a re-analysis of the deposited data

Results flagged for a closer look

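Jun, an AP-1 subunit that pairs with Batf on composite elements with Irf4, differed in opposite directions in the pairs, by 1.46 in pair 1 and −2.20 in pair 2 (AID-silenced minus control, log2 units), with signals of 229 and 3233 in the controls and 658 and 693 in the silenced clones. Cd74, the MHC class II invariant chain, differed by −1.64 and 3.96, with 4931 and 138 in the controls and 1573 and 2375 in the silenced clones. Mpo, a myeloid peroxidase gene, differed by 1.04 and −1.27. With 1 array per clone these differences between the pairs were not tested, and no member probe set was 2-fold apart in opposite directions.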

How the results depend on the processing

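The count of member probe sets passing limma was 0 in both comparisons under every alternative tried: median scaling, quantile normalisation, a pseudocount of 1 or of 64, all 23 probe sets tested without a filter, a stricter filter (9 tested), a prior with neither trend nor robust fit, the replicate block or group block, and each clone left out. With the replicate block the count of members called was 0 as well, and it changed no other call of a member. The number of member probe sets alike in sign in both pairs was 9 of 10, and 8 with quantile normalisation and 7 with median scaling. Pou2af1, at −0.03 between the groups, gave 0.00086 with quantile normalisation. Leaving out 1 clone at a time, group differences ran from −0.12 to 0.37 for the brighter Irf4 probe set, from −0.082 to 0.40, −0.027 to 0.44 and −0.21 to 0.51 for the brightest, the second and the dimmest Xbp1 probe set, from −0.15 to 0.091 for Pou2af1, from −0.040 to 0.82 for Ell2, from −0.45 to 1.29 for Ern1 and from −0.0072 to 1.39 for Ikzf3. The pair difference of Prdm1 ran from −0.33 to 0.60. Between groups, 0 to 1 list genes were called when a clone was left out, namely Klf2 (limma adjusted p = 0.0373, pair 2 control left out) and Jun (limma adjusted p = 0.0120, pair 1 control left out). In both fits the control arm is 1 clone, assumed to vary like the silenced clones, which alone supply the spread. The cause of the reversed signs was not tested. The median pair difference of the list genes was 0.09 at the brightest probe sets and 0.07 as the mean of probe sets. Signals near the control level limit what can be said of the B cell factors.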
